A study of Mus musculus with 10 samples.

Results

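The cell cycle and proliferation genes considered here are 38 genes chosen by name, with earlier results of these data known. They comprise 22 genes whose products act in G2 and mitosis, called G2/M genes below, and 16 genes of the G1/S transition and DNA replication, called S phase genes. The deposited files list 54532 genes, of which 33224 had at least 1 read and 18329 passed the filter on low counts and were tested, and all 38 cell cycle genes were among those tested. RNA-seq was performed on the dissected cochlea of mtKeima mice aged 12 months, a strain on a mixed genetic background that carries a transgene for a pH-dependent fluorescent protein targeted to mitochondria. A group of 5 mice received nicotinamide riboside (NR), a precursor of NAD+, in the drinking water at 7 mg/ml (24 mM) from 2 months of age for 10 months, and another 5 mice received regular water and are called non-treated. Each library came from 1 mouse, and both groups carried the mtKeima transgene and differed by label only in NR.

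A dividing cell copies its DNA in S phase, and then segregates the copies in mitosis. E2F transcription factors and cyclin E start S phase, the MCM helicase is loaded at replication origins by CDC6 and CDT1, and PCNA then holds the polymerases on DNA. Cyclin B with CDK1 drives entry into mitosis, the Aurora and Polo kinases organize the spindle, and the anaphase promoting complex with CDC20 and UBE2C ends mitosis by marking cyclins for degradation. Genes of mitosis are mostly transcribed late in the cycle by the MuvB, B-MYB and FOXM1 factors through CHR elements and CCAAT boxes, and genes of S phase earlier through E2F sites. Hair cells and supporting cells of the adult mammalian cochlea rarely divide, while progenitors of blood cells in bone marrow divide often.

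The promoters of the G2/M and S phase genes with the highest levels are shown because the elements named above are known to time transcription within the cycle. RefSeq (GRCm38.p6, the same coordinates as mm10) gave a promoter for 32 of the 38 genes, 18 of the G2/M and 14 of the S phase genes, and Aurkb, Ccna2, Tpx2, Kif20a, Ccne2 and Mcm4 had no entry. The 250 bases before the start are printed 5′ to 3′ on the strand of the gene, with the CHR element (TTTGAA or TTCGAA) and the CCAAT box in capitals, both searched on either strand. Ube2c, which encodes the ubiquitin-conjugating enzyme of the anaphase promoting complex, lies at chr2:164769679-164769928 on the plus strand, and Mki67, which encodes the proliferation marker Ki-67, at chr7:135716380-135716629 on the minus strand. Pcna, the sliding clamp of the replication fork, lies at chr2:132253181-132253430 on the minus strand, and Rrm2, the small subunit of ribonucleotide reductase, at chr12:24708004-24708253 on the plus strand.
Ube2c: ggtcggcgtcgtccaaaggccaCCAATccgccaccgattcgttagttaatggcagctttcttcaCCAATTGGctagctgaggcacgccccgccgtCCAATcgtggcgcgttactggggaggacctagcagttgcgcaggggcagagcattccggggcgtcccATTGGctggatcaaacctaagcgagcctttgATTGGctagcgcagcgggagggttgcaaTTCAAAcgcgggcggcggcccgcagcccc
Mki67: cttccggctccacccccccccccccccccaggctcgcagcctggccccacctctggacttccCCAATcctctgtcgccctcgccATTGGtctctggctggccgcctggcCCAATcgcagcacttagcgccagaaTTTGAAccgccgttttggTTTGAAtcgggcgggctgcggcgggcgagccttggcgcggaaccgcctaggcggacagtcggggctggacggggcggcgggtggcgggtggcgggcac
Pcna: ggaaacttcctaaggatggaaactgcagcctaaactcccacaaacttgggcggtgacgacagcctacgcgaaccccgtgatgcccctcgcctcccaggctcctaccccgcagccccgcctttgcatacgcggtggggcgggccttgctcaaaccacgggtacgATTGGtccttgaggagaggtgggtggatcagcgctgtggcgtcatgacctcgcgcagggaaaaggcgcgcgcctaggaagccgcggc
Rrm2: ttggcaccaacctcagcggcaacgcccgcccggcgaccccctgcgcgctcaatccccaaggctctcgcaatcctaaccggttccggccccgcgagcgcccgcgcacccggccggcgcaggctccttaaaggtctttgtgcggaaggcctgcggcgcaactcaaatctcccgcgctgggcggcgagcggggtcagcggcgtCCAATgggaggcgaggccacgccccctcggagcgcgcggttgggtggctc
The promoter of Ube2c held 1 CHR element, 29 bases before the start, and 6 CCAAT boxes, of which a pair overlaps head to head on opposite strands. Mki67 held 2 CHR elements, 116 and 98 bases before the start, downstream of 3 CCAAT boxes. Pcna and Rrm2 each held 1 CCAAT box, 87 and 50 bases before the start, and no match to the letters of the CHR element.

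Across the cell cycle genes with a promoter, a CHR element was found in 8 of 18 G2/M genes (44.4%) and in 2 of 14 S phase genes (14.3%), against 12.4% of the 12989 tested genes with a promoter and 17.5% of all 27025 promoters. A CCAAT box was found in 16 of 18 G2/M genes (88.9%) and in 9 of 14 S phase genes (64.3%), against 35.6% of tested genes and 34.5% of all promoters. Every G2/M promoter with a CHR element also had a CCAAT box, a combination held by 4.74% of the promoters of tested genes and 6.23% of all promoters. Top2a, the topoisomerase that untangles replicated chromosomes, had 4 CHR elements and 6 CCAAT boxes, the most of both among these promoters, level with Ube2c for the latter. An E2F site (TTTCCCGC, TTTCGCGC, TTTGCCGC or TTTGGCGC, on either strand) was found in 1 of 18 G2/M genes (5.56%), Cdk1, and in 4 of 14 S phase genes (28.6%), Cdc6, Mcm5, Mcm6 and Mcm7, against 3.06% of tested genes and 1.92% of all promoters. These matches are letters in a window and were not tested as binding sites.

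The total count per mouse was between 17060379 and 24419230, with a median of 22346972 in NR-treated and 23007355 in non-treated mice. The labels give female mice and the methods of the study male mice. Xist, the RNA of the inactive X chromosome, was between 0.0882 and 0.405 CPM (counts scaled to an equal library total), and the Y-linked Ddx3y was between 64.5 and 85.0 CPM in all 10 mice, with Ddx3y above Xist in each. All 14 marker genes of the cochlea were detected in every mouse, and so were markers of erythroid cells, neutrophils and osteoblasts, whose cells lie in the marrow, blood and bone around the cochlea.

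All 38 cell cycle genes had a lower mean in NR-treated than in non-treated mice, with a log2 fold change below 0 for 38 of 38, against 52.9% of all tested genes. The median log2 fold change was -0.36 for the G2/M genes and -0.31 for the S phase genes, and -0.01 for all tested genes, where a negative value is lower with NR. At an unadjusted p of 0.05, the threshold by which the study selected genes, 1 of 38 was lower (Cenpf), against 4.88% of tested genes, and 0 of 38 were higher, against 4.83%. No cell cycle gene passed an adjusted p of 0.05 (0.0% of tested genes with the quasi-likelihood test of edgeR), and 0 of 38 had groups that did not overlap in CPM, against 1.65% of tested genes. With DESeq2, 1 of 38 was lower at an unadjusted p of 0.05, again Cenpf, against 3.07% of the 33224 genes with at least 1 read, and 0 of 38 passed an adjusted p of 0.05, where 52 genes were higher and 50 lower over all genes. The 38 genes are transcribed together in dividing cells and are not independent, so the count of 38 does not measure 38 separate differences. In bulk tissue fewer dividing cells and less RNA of these genes per cell cannot be told apart.

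**Figure D1:**
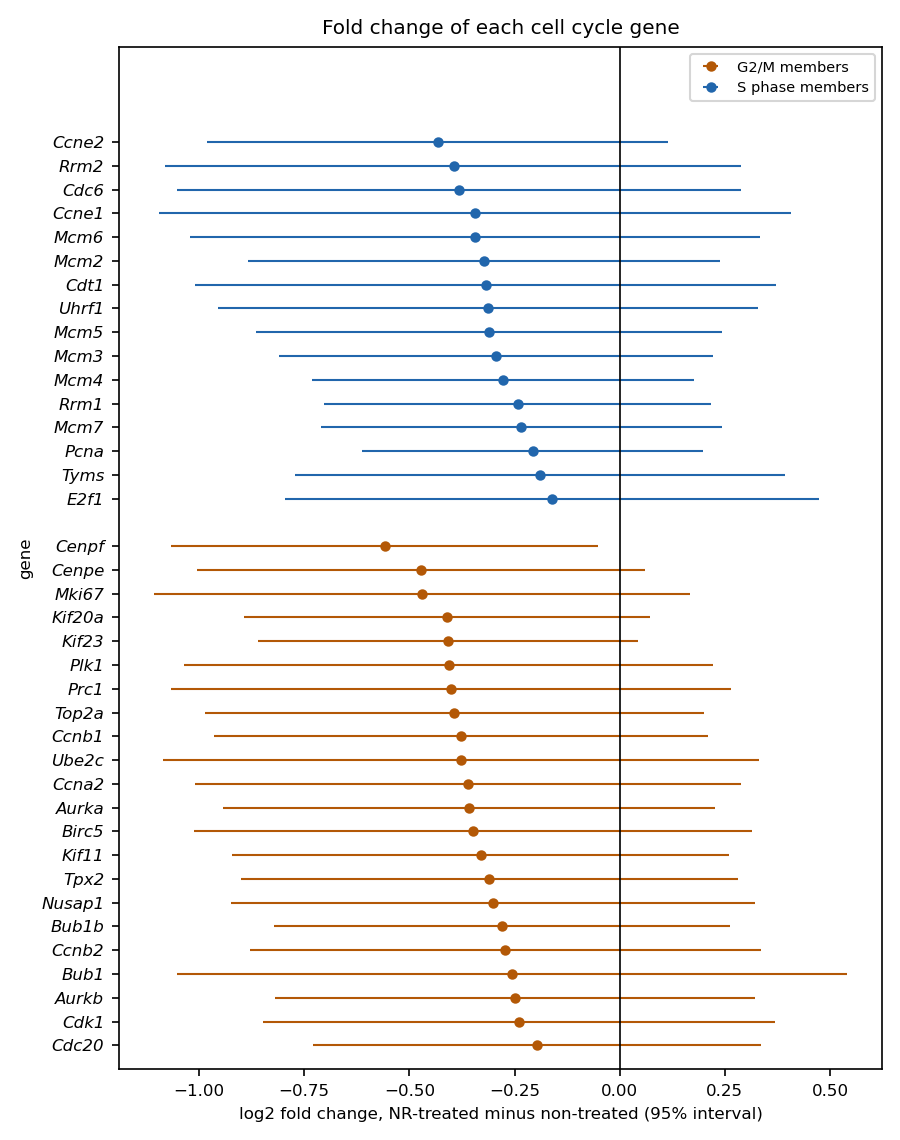
Log2 fold change (NR-treated minus non-treated, x axis) of each of the 38 cell cycle genes (y axis), with 95% intervals from the edgeR fit of 5 against 5 mice. Every point lies left of 0, and the interval of only Cenpf does not reach 0.

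The 95% intervals of 37 of the 38 genes included 0, and over all genes they ran from -1.11 (Mki67) to 0.54 (Bub1). The point estimates lay in a narrow band, from -0.56 to -0.20 for the G2/M genes and from -0.43 to -0.16 for the S phase genes. The standard error of a cell cycle gene had a median of 0.27, against 0.12 for all tested genes. Nearest to the unadjusted threshold of 0.05 were Cenpf inside it, with an adjusted p of 0.483 in edgeR, and Kif23, Cenpe and Kif20a outside it, with adjusted p-values of 0.548, 0.555 and 0.567. The levels per length of the S phase genes were higher than those of the G2/M genes, with a median of 9.55 against 5.69 RPKM (CPM per kilobase of gene length). They ranged from 2.53 (Tyms) to 48.7 RPKM (Pcna) in S phase and from 1.14 (Cenpf) to 21.7 RPKM (Ube2c) in G2/M, as means over the 10 mice.

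Values of single genes are given in CPM, in the order of replicates 1 to 5 of each group. Mki67 (chr7:135689784-135716361, minus strand) encodes Ki-67, which coats mitotic chromosomes and is present in all cycling cells. It was at 131, 139, 148, 137 and 189.8 CPM in the NR-treated mice and at 358, 166, 146, 100.2 and 263 CPM in the non-treated mice. Non-treated replicates 1 and 5 were above all NR-treated mice and non-treated replicate 4 was below all of them, so the groups overlapped. The means were 149 ± 23.6 and 207 ± 103 CPM (SD, n = 5 each), a log2 fold change of -0.47 (standard error 0.29, edgeR adjusted p = 0.625). The standard deviation was larger in the non-treated mice. Top2a encodes the topoisomerase that decatenates sister chromatids before they separate. It was at 57.8, 51.6, 65.5, 61.6 and 91.1 CPM with NR and at 135, 82.8, 55.6, 47.9 and 109 CPM without. As for Mki67, non-treated replicates 1 and 5 were highest and non-treated replicate 4 was lowest of the 10 mice. Its log2 fold change was -0.39 (standard error 0.27, edgeR adjusted p = 0.656).

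Of the mitotic cyclins and their kinase, Ccnb2 (cyclin B2) had the highest level per length, at 17.4 RPKM. It was at 21.7, 21.0, 23.4, 22.4 and 32.1 CPM in the NR-treated mice and at 46.3, 32.5, 20.3, 13.6 and 33.0 CPM in the non-treated mice. Non-treated replicates 1, 2 and 5 were above every NR-treated mouse, replicates 2 and 5 by less than 1 CPM, and non-treated replicates 3 and 4 were below every NR-treated mouse. This gave a log2 fold change of -0.27 (standard error 0.28, edgeR adjusted p = 0.756). Ccna2 (cyclin A2), Ccnb1 (cyclin B1) and Cdk1, the kinase that these cyclins activate, had log2 fold changes of -0.36, -0.38 and -0.24, and their non-treated mice also lay on both sides of the NR-treated mice. Of the mitotic kinases, Aurka and Plk1, which build the spindle poles, had -0.36 and -0.41, and Aurkb had -0.25. Birc5 (survivin), the partner of Aurora B in the chromosomal passenger complex, had -0.35. The checkpoint kinases Bub1 and Bub1b, which delay anaphase until all kinetochores are attached, had -0.26 and -0.28. None of these genes passed an unadjusted p of 0.05.

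Cenpf (chr1:189640606-189688086, minus strand) encodes a large protein of the outer kinetochore and of the nuclear matrix in G2, and was the gene with the lowest p. It was at 13.8, 12.6, 13.9, 13.4 and 17.3 CPM in the NR-treated mice and at 32.8, 20.2, 15.4, 12.2 and 24.1 CPM in the non-treated mice. Non-treated replicates 1, 2 and 5 were above all NR-treated mice, and non-treated replicate 4 was below all of them. The means were 14.2 ± 1.81 and 20.9 ± 8.05 CPM (SD, n = 5 each), a log2 fold change of -0.56 (standard error 0.23, edgeR adjusted p = 0.483). Without any one of 7 of the 10 mice the p was above 0.05, and the log2 fold change without non-treated replicate 1 was -0.34. Cenpe, the kinesin that moves chromosomes to the spindle equator, was the gene with the second most negative fold change. It was at 9.49, 9.17, 11.2, 11.3 and 13.2 CPM with NR and at 22.9, 15.4, 9.71, 9.17 and 18.4 CPM without. Non-treated replicates 1, 2 and 5 again exceeded every NR-treated mouse, and non-treated replicate 4 lay level with NR-treated replicate 2, the lowest of its group. On the log2 scale the difference was -0.47 (standard error 0.24, edgeR adjusted p = 0.555).

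Among the motors and bundlers of the spindle, Kif23 and Kif20a, kinesins of the central spindle and of cytokinesis, had log2 fold changes of -0.41 and -0.41, and Prc1, which bundles midzone microtubules, had -0.40. Kif11, the motor that pushes the spindle poles apart, had -0.33, and Tpx2 and Nusap1, which nucleate and stabilize spindle microtubules, had -0.31 and -0.30. Kif20a was the 1 gene whose highest mouse was not non-treated replicate 1, with its highest value, 13.5 CPM, in non-treated replicate 5 and its lowest, 4.97 CPM, in NR-treated replicate 2. Of the genes that end mitosis, Ube2c varied most among the non-treated mice. It was at 45.1, 46.0, 42.8, 44.0 and 67.5 CPM in the NR-treated mice and at 112, 64.8, 41.8, 25.7 and 74.4 CPM in the non-treated mice. The NR-treated mice other than replicate 5 lay within 42.8 and 46.0 CPM, while the non-treated mice spanned a 4.36-fold range that enclosed them. Its log2 fold change was -0.38 (standard error 0.32, edgeR adjusted p = 0.712). Cdc20, the activator of the anaphase promoting complex, had the smallest change of the G2/M genes. It was at 22.8, 21.4, 24.0, 23.5 and 35.9 CPM with NR and at 42.0, 32.1, 20.1, 17.1 and 34.9 CPM without. NR-treated replicate 5 exceeded all non-treated mice except replicate 1. This gave a log2 fold change of -0.20 (standard error 0.24, edgeR adjusted p = 0.797).

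Of the S phase genes, Pcna (chr2:132249162-132253314, minus strand) had the highest level per length. It was at 109, 108, 108, 96.5 and 122 CPM in the NR-treated mice and at 172, 128, 94.0, 79.8 and 152 CPM in the non-treated mice. The NR-treated mice lay within a 1.26-fold range, the narrowest of the 38 genes, and non-treated replicates 1, 2 and 5 were above and replicates 3 and 4 below all of them. The means were 108.5 ± 8.996 and 125 ± 38.8 CPM (SD, n = 5 each), a log2 fold change of -0.21 (standard error 0.18, edgeR adjusted p = 0.724). Uhrf1, which recruits the maintenance DNA methyltransferase to newly copied DNA, had -0.31. Rrm2 supplies deoxynucleotides and had the second highest level per length. It was at 59.6, 69.1, 58.9, 53.8 and 78.5 CPM with NR and at 137, 83.6, 50.5, 35.8 and 114 CPM without. The non-treated mice spanned a 3.84-fold range and the NR-treated mice a 1.46-fold range within it. On the log2 scale the difference was -0.40 (standard error 0.31, edgeR adjusted p = 0.692). Rrm1, the large subunit of the same enzyme, and Tyms, thymidylate synthase, had -0.24 and -0.19, and neither passed an unadjusted p of 0.05.

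The MCM genes encode the 6 subunits of the replicative helicase. Mcm2 was at 54.5, 51.3, 55.8, 48.5 and 80.4 CPM in the NR-treated mice and at 109, 69.2, 50.2, 40.6 and 94.6 CPM in the non-treated mice. Mcm7 was at 73.7, 67.4, 74.9, 64.7 and 94.5 CPM with NR and at 129, 79.1, 65.6, 54.9 and 112 CPM without. Mcm4 was at 42.9, 40.4, 41.6, 38.4 and 50.3 CPM with NR and at 73.9, 50.8, 35.2, 33.5 and 65.5 CPM without. In all 3 genes non-treated replicates 1 and 5 were above and non-treated replicate 4 was below every NR-treated mouse. The log2 fold change of Mcm2 was -0.32 (standard error 0.25, edgeR adjusted p = 0.694). For Mcm7 it was -0.23 (standard error 0.22, edgeR adjusted p = 0.733). For Mcm4 it was -0.28 (standard error 0.21, edgeR adjusted p = 0.676). Mcm3, Mcm5 and Mcm6 had -0.29, -0.31 and -0.34, so the 6 subunits differed from each other by less than their standard errors. Of the loaders of this helicase, Cdc6 had -0.38 and Cdt1 -0.32. Of the regulators that start S phase, Ccne1 and Ccne2 (cyclins E1 and E2) had -0.34 and -0.43, and E2f1, a transcription factor of the G1/S genes, had -0.16, the smallest change of the 38 genes. None of these genes passed an unadjusted p of 0.05.

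Beyond the direction of the means, the groups differed in how far their mice lay apart. The standard deviation of log2 CPM was larger in the non-treated mice for 38 of 38 genes, against 62.2% of tested genes. Within the non-treated mice the highest value was a median of 2.88 times the lowest (range over genes 2.02 to 4.36), and within the NR-treated mice 1.57 times (1.26 to 2.06), against 1.41 and 1.33 for all tested genes. The range of the non-treated mice enclosed that of the NR-treated mice in 35 of 38 genes, 19 of 22 in G2/M and 16 of 16 in S phase, against 27.3% of tested genes. The exceptions were Kif20a, Kif23 and Prc1. Non-treated replicate 1 was the highest of the 10 mice in 37 of 38 genes, against 13.2% of tested genes, and non-treated replicate 4 was the lowest in 33 of 38, against 13.7%. As each gene repeats the same mice, this is 1 pattern over 10 libraries and not 38 observations.

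**Figure D2:**
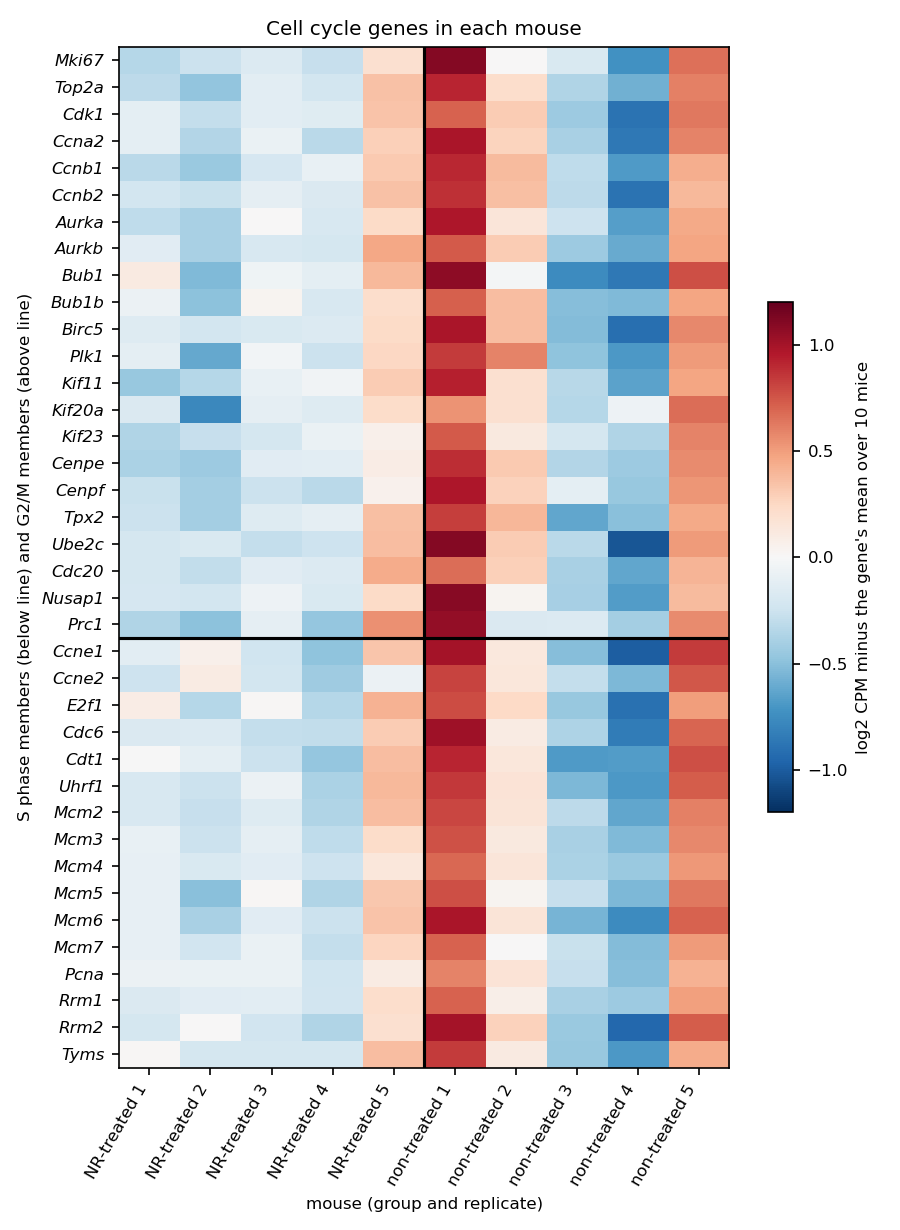
Log2 CPM of each cell cycle gene (rows) in each mouse (columns), as the difference from that gene's mean over the 10 mice. Non-treated replicate 1 is above the mean in every row and highest in 37 of 38, non-treated replicate 4 is lowest in 33 of 38, and the NR-treated range lies inside the non-treated range in 35 of 38.

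The sums over the genes had the same 4 highest mice and the same lowest mouse in both phases. The summed CPM of the 22 G2/M genes was 563.7, 533.5, 609.1, 579.2 and 817.5 in NR-treated replicates 1 to 5, and 1311, 777.5, 536.6, 416.7 and 991.4 in non-treated replicates 1 to 5. The summed CPM of the 16 S phase genes was 670.6, 641.7, 668.2, 588.0 and 866.0 with NR, and 1264, 798.3, 560.6, 475.5 and 1098 without. In both sums non-treated replicates 1 and 5 were highest, followed by NR-treated replicate 5 and non-treated replicate 2, and non-treated replicate 4 was lowest. The means were 621 ± 113 and 807 ± 359 CPM (SD, n = 5 each) for G2/M, and 687 ± 106 and 839 ± 339 CPM for S phase, so the groups differed by less than the standard deviation of the non-treated mice. The S phase sum divided by the G2/M sum was between 1.02 and 1.2 in NR-treated and between 0.964 and 1.14 in non-treated mice, with the lowest ratio in non-treated replicate 1. The balance of the phases thus varied over a 1.25-fold range (highest over lowest mouse), while the G2/M sum itself varied over a 3.15-fold range.

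Leaving out 1 mouse at a time moved the size of the difference. Without non-treated replicate 1 the median log2 fold change was -0.10 for G2/M and -0.10 for S phase genes, 34 of 38 genes were below 0, against 49.9% of tested genes, and Tyms, Nusap1, Bub1 and E2f1 were above 0. Without non-treated replicate 4 the medians were -0.52 and -0.46, and 15 of 38 genes (11 G2/M and 4 S phase) were lower at an unadjusted p of 0.05, against 4.12% of tested genes. Without non-treated replicate 3, 4 of 38 were lower, against 3.01%, and without NR-treated replicate 5, 2 of 38 were lower, against 3.44%. In the other fits that left out 1 mouse, 0 of 38 genes had an unadjusted p of 0.05 or less in edgeR. In none of the 10 fits did a cell cycle gene pass an adjusted p of 0.05, and their smallest adjusted p was 0.422. A count of lower genes between 0 and 15 thus rested on which single mouse was left out.

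**Figure D3:**
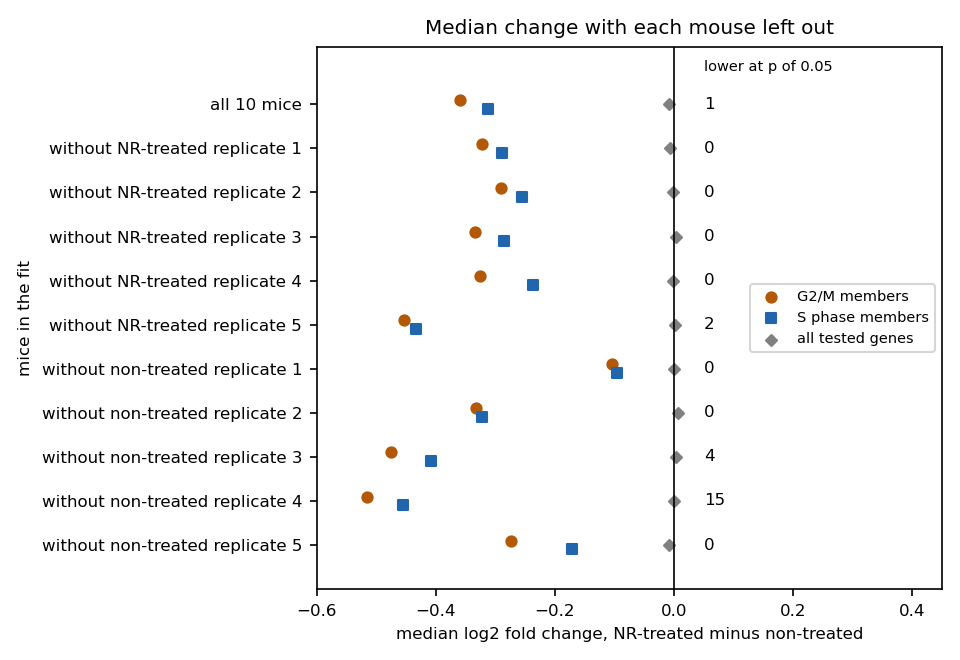
Median log2 fold change (NR-treated minus non-treated, x axis) of the G2/M genes, the S phase genes and all tested genes with all 10 mice and with each mouse left out (y axis), with the number of the 38 genes lower at an unadjusted p of 0.05. The medians lie closest to 0 without non-treated replicate 1 and farthest from it without non-treated replicate 4, where the number is 15.

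Other genes of the cell cycle were taken from lists written by name, beside an all-gene background of 52.9% below 0, a median of -0.01, and 4.88% lower and 4.83% higher at an unadjusted p of 0.05. Of 50 other mitotic genes, such as kinetochore and condensin subunits, 47 had a log2 fold change below 0, with a median of -0.28, and 0 passed an unadjusted p of 0.05 in edgeR, against 1 with DESeq2. Of 40 other replication genes, 37 were below 0, with a median of -0.15, and 1 was lower at an unadjusted p of 0.05. This was Pole, the catalytic subunit of the leading strand polymerase, at 11.7, 12.5, 12.1, 13.3 and 17.9 CPM with NR and at 24.3, 15.0, 15.6, 16.7 and 21.6 CPM without. Of the NR-treated mice, replicate 5 alone lay within the range of the non-treated mice. The log2 fold change of Pole was -0.46 (standard error 0.17, edgeR adjusted p = 0.458). Of 19 regulators of the RB, E2F and MuvB families, 17 were below 0, with a median of -0.22 and 0 at an unadjusted p of 0.05 in edgeR. Among them, Foxm1 and Mybl2 (B-MYB), which activate mitotic genes, had -0.23 (standard error 0.23) and -0.30 (standard error 0.27). These medians were closest to 0 without non-treated replicate 1, at -0.05 for the other mitotic genes, -0.03 for the other replication genes and -0.08 for the regulators. Without non-treated replicate 4 they were -0.43, -0.23 and -0.26. In that fit 8 other mitotic genes, 2 other replication genes and 2 regulators were lower at an unadjusted p of 0.05 in edgeR. This compares with 4.12% of tested genes.

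The lists of G1 cyclins and their kinases and of inhibitors of cyclin-dependent kinases had medians near 0. Rb1, Rbl1 and Rbl2, of the regulators above, had log2 fold changes of -0.23, -0.24 and -0.17. Non-treated replicate 1 was the highest mouse in 4 of 6 G1 cyclins and kinases, 2 of 7 inhibitors and 9 of 19 of the regulators above. This compares with 13.2% of all tested genes, and with 46 of 50 other mitotic and 34 of 40 other replication genes. The 6 G1 cyclins and kinases had a median of -0.03, with Ccnd1 (cyclin D1), which links growth factors to the cycle, at -0.03 (standard error 0.18). Of 7 inhibitors of cyclin-dependent kinases, 6 were tested, with a median of -0.05, and 1 was higher at an unadjusted p of 0.05 (4.83% of tested genes). This was Cdkn1a (p21), an inhibitor induced by p53, at 109, 91.9, 116.5, 98.4 and 99.7 CPM with NR and at 96.7, 77.6, 97.0, 98.0 and 79.3 CPM without. NR-treated replicates 1, 3, 4 and 5 were above all non-treated mice, and NR-treated replicate 2 was not. The log2 fold change of Cdkn1a was 0.20 (standard error 0.09, edgeR adjusted p = 0.504). The list had 0 genes higher at an unadjusted p of 0.05 without NR-treated replicate 1 or 3, or without non-treated replicate 2 or 5, so the call of Cdkn1a was lost in 4 of the 10 fits that left out 1 mouse. Cdkn1b (p27), which holds resting cells out of the cycle, was at 0.01 (standard error 0.06). Cdkn2a (p16), a marker of senescent cells, did not pass the filter, with 0 to 14 reads per mouse.

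The highest and the lowest mouse of the cell cycle genes were also those of the erythroid markers. The summed CPM of 12 erythroid markers, among them globins and Klf1, was 7597, 11560, 8159, 9281 and 13410 in NR-treated and 18430, 12340, 7750, 4260 and 11670 in non-treated replicates 1 to 5. Non-treated replicate 1 was highest in 11 of the 12 (13.2% of tested genes) and non-treated replicate 4 lowest in 12 of 12 (13.7%). None of the 12 was at 0 in any mouse. Without the 4 globin genes the sum was 859.0, 1090, 867.1, 978.2 and 1567 with NR and 2558, 1193, 1156, 635.3 and 1706 without, so that non-treated replicates 1 and 5 and NR-treated replicate 5 were the highest, as for the cell cycle genes. All 12 had a log2 fold change below 0 (52.9% of all tested genes), with a median of -0.32 (-0.01 for all). At an unadjusted p of 0.05, 0 passed in edgeR and 1 was lower with DESeq2 (3.07% of genes with at least 1 read). The median was -0.07 without non-treated replicate 1 and -0.52 without non-treated replicate 4, where 6 of the 12 were lower at an unadjusted p of 0.05 (4.12% of tested genes). Klf1, the transcription factor of red cell precursors, was at 36.5, 38.4, 41.2, 34.98 and 62.5 CPM with NR and at 107, 60.1, 41.4, 25.4 and 87.8 CPM without. Their part in the difference of the cell cycle genes was not tested.

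**Figure D4:**
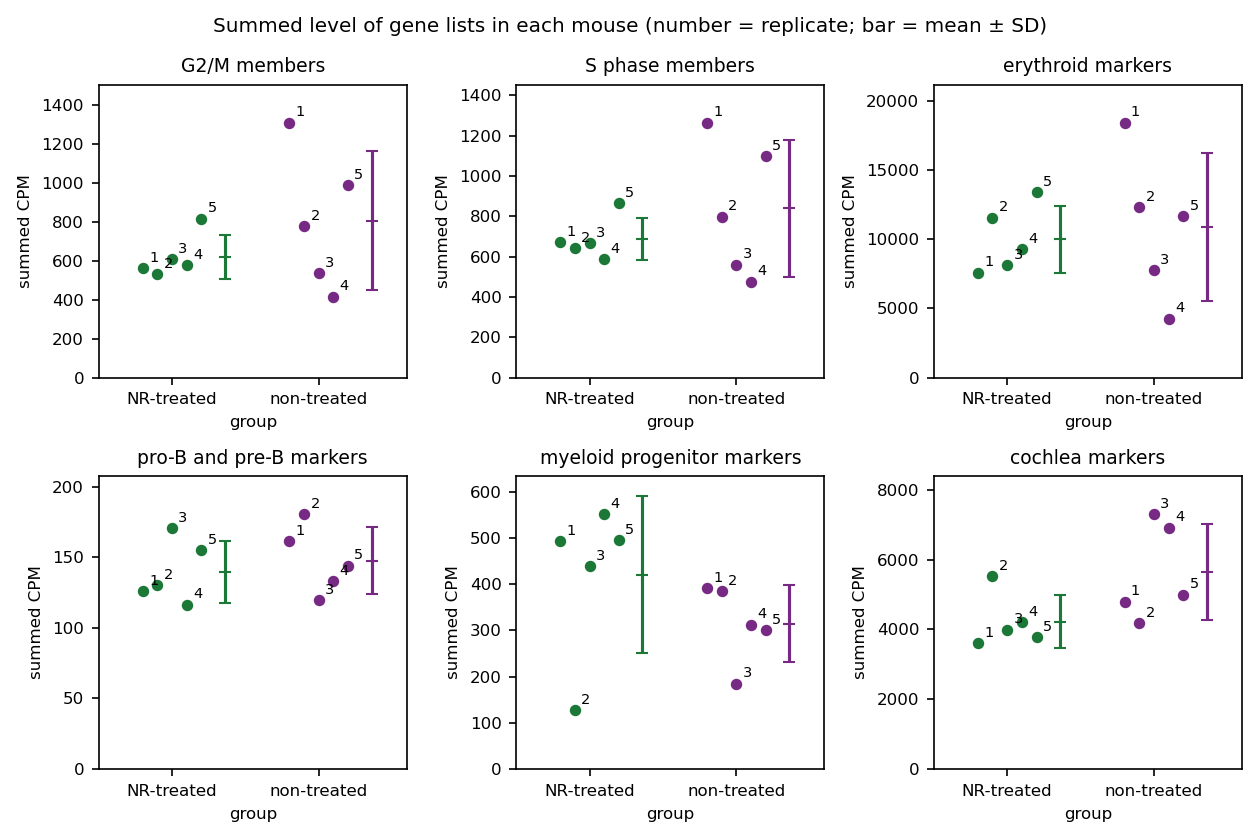
Summed CPM (y axes, each from 0) of the G2/M genes, the S phase genes and marker lists in each mouse (points, numbered by replicate) of the NR-treated and non-treated groups (x axes), with the mean ± SD. Of the 10 mice, non-treated replicate 1 is highest and replicate 4 lowest for both phases and for erythroid markers, and not for the other lists.

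Markers of B cell precursors, which also divide, lay in the same direction as the cell cycle genes. Of 12 markers of pro-B and pre-B cells, 10 had a log2 fold change below 0 (52.9% of all tested genes). Their median was -0.34 (-0.01 for all), with 0 at an unadjusted p of 0.05 in edgeR. The median was -0.19 without non-treated replicate 1 and -0.42 without non-treated replicate 4. They summed to between 116.5 and 170.3 CPM in NR-treated and between 119.5 and 180.4 CPM in non-treated mice, and 68.2 to 88.8 CPM of this was Ebf1 alone, a factor also expressed outside the B lineage. The markers of the earliest B cell precursors, Vpreb1 and Igll1 (the surrogate light chain) and Dntt (terminal transferase), were chosen after their values were seen. Igll1 was at 2.07, 0.94, 3.07, 1.31 and 2.37 CPM with NR and at 4.52, 5.03, 1.09, 0.84 and 3.20 CPM without. In all 3 genes non-treated replicate 4 was the lowest of the 10 mice and non-treated replicates 1 and 2 were the highest. Over all 12 markers, non-treated replicate 4 was lowest in these 3 only (13.7% of tested genes). Non-treated replicate 1 was highest in 1 of the 12 (13.2% of tested genes). Rag1, of the same list, was highest in non-treated replicate 4, at 4.23 CPM. The part of B cell precursors in the values of the cell cycle genes was not tested.

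Markers of other cells of marrow, blood, bone and nerve had medians above 0, against -0.01 for all tested genes. The 5 markers of myeloid progenitors summed to between 126.7 and 550.9 CPM in NR-treated and between 184.5 and 391.2 CPM in non-treated mice, with all 5 log2 fold changes above 0 and a median of 0.41. The medians were 0.46 for neutrophils, 0.18 for macrophages, 0.33 for T and NK cells and 0.12 for Schwann cells. For endothelial cells and osteoblasts they were 0.10 and 0.33. Of the 10 mice, non-treated replicate 1 was highest in 0 of the genes of each of these lists, against 13.2% of tested genes. Among the non-treated mice alone, replicate 1 had the highest sum for myeloid progenitors, Schwann cells, endothelial cells and osteoblasts, and replicate 2 for the others. Non-treated replicate 4 was the lowest of the 10 mice in 4 of 7 osteoblast markers (13.7% of tested genes). It was lowest in 1 each of the T and NK cell and Schwann cell markers, and in 0 of the other lists. At an unadjusted p of 0.05, Retnlg and Mmp9 of 9 neutrophil markers, Pecam1 of 6 endothelial markers and Col1a1 of 7 osteoblast markers were higher (4.83% of tested genes), and Sox10 of 6 Schwann cell markers was lower (4.88%). Of these genes, named after their values were seen, Col1a1 had the largest log2 fold change, 1.74 (standard error 0.47, edgeR adjusted p = 0.407). The 14 markers of the cochlea had a median of -0.68, with 8 lower at an unadjusted p of 0.05 (4.88% of tested genes). Of these markers, 11 were lower without non-treated replicate 1 (1059 of 18535 tested genes) and 3 without non-treated replicate 4 (4.12%). Their sum was highest in non-treated replicates 3 and 4, at 7303 and 6922 CPM, the mice with the lowest cell cycle sums of their group, and lay between 3608 and 5536 CPM in the NR-treated mice. The part of these cells in the values of the cell cycle genes was not tested.

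For 6 of the 38 genes more than 10% of the exon bases lie within an exon of another gene, and the study's methods give the default mode of featureCounts, which does not use strand. They are Kif20a (29.3%, with Cdc23), Ube2c (22.8%, with the muscle troponin gene Tnnc2), Ccne2 (17.4%, with Ints8), Mcm7 (12.6%, with Ap4m1, Cops6 and microRNA genes), Ccna2 (12.5%, with Exosc9) and Prc1 (11.1%, with Rccd1). Reads of those bases cannot be assigned to 1 of the genes, so the levels of these 6 are less certain than those of the others. Non-treated replicate 1 was the highest of the 10 mice in each of the 32 genes without such overlap.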

How the data were processed

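RNA was taken from the cochlea of 5 NR-treated and 5 non-treated mtKeima mice, 1 library each, grouped by the treatment in the labels. The values the authors deposited are raw read counts per gene, 1 file per mouse, made by Novogene. The submitters' processing notes name fastp, STAR 2.6.1d with the mm10 build and featureCounts 1.5.0, and the annotation release is not given in the sources used here. No normalization had been applied. The study's methods give the default mode of featureCounts, which counts without regard to strand.

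Genes were filtered with filterByExpr, normalized by TMM and tested with the quasi-likelihood test of edgeR 4.0.16 (R 4.3.3), with no covariate, and p-values were adjusted over all 18329 tested genes by the Benjamini-Hochberg method. The test was tested on simulated data. CPM are counts scaled to an equal library total, RPKM are CPM per kilobase of the gene length in the files, and log2 CPM used a prior count of 2. The SD of log2 CPM measures the spread between mice. The 95% intervals, from the total (prior and residual) degrees of freedom of edgeR, give the uncertainty of the difference between groups. The common biological coefficient of variation was 0.207. No pair of libraries had the same counts, with a chi-square per gene of at least 10.9 for every pair. Coordinates are from GENCODE M21 (GRCm38), which holds 54409 of the 54532 identifiers.

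The 38 genes and all lists were chosen with earlier results of these data known, and no test was made over a list. Lists are described by counts and medians beside those of all tested genes. The genes given with every mouse's value were the 4 of each phase with the highest mean RPKM, those at an unadjusted p of 0.05, those whose groups do not overlap, the 3 with the largest change in each direction, and Mki67, Top2a, Pcna and Mcm2. Of the other cell cycle lists, up to 5 genes at an unadjusted p of 0.05 and 6 set regulators are named, and of the marker lists only examples. Exon overlap and levels without globins were computed once results had been seen. Ahsp, an erythroid marker, was not analysed here. Alternatives were DESeq2 1.42.0, its size factors in edgeR, a filter of 1 CPM in 5 samples, every gene with at least 1 read, the replicate number as a block, and leaving out each mouse.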

Additional observations from a re-analysis of the deposited data

Results flagged for a closer look

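Within the NR-treated group, replicate 5 stood apart above the other mice, by a gap over the range of the 5 mice larger than Dixon's critical value of 0.71, in 11 of the 38 cell cycle genes. Its CPM was 31.6 for Cdk1, 32.12 for Ccnb2, 22.57 for Aurkb, 40.92 for Birc5, 17.31 for Cenpf, 67.55 for Ube2c, 35.94 for Cdc20 and 23.44 for Prc1 among the G2/M genes, and 28.01 for Cdc6, 80.39 for Mcm2 and 71.83 for Rrm1 among the S phase genes. The G2/M sum of this mouse was 817.5 CPM, where the next NR-treated mouse had 609.1 CPM. These are 12 of 80 groups examined, all with the same mouse, and chance flags about 1 in 20 groups. The genes share the mouse, so the flags are 1 observation. Without this mouse the median log2 fold change was -0.45 for the G2/M and -0.43 for the S phase genes.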

How the results depend on the processing

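The medians of both phases stayed below 0 in all 15 alternatives. The number of genes at an unadjusted p of 0.05 was 886 higher and 894 lower, and 1414 higher with every gene that had at least 1 read. At an adjusted p of 0.05, edgeR called 0 genes in either direction and DESeq2 called 52 that were higher and 50 that were lower (1162 and 1021 at an unadjusted p of 0.05). Leaving out 1 mouse at a time gave 669 to 1414 higher and 484 to 1059 lower genes at an unadjusted p of 0.05, 0 to 1 higher and 0 lower with the adjusted p, 0 to 11 lower G2/M genes and 0 to 4 lower S phase genes, with medians from -0.515 to -0.104 for G2/M and from -0.455 to -0.095 for S phase. The correlations of same-numbered mice, as deviations from their group mean, were 0.17, -0.12, -0.22, 0.02 and 0.13. Only NR-treated replicate 1 correlated best with the non-treated mouse of its own number. So few values show no clear pairing by replicate number and cannot exclude it. With the replicate block, 879 genes were higher and 776 lower at an unadjusted p of 0.05, Cenpf was the 1 cell cycle gene lower, and the medians were -0.243 and -0.21. Every cell cycle gene had at least 83 reads in every mouse. The cause of these differences between settings was not tested.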
